A study of Drosophila melanogaster with 6 samples.

Results

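Cullin-3 ubiquitin ligases mark proteins for turnover, and their substrate adaptors carry a BTB domain that docks onto the Cullin-3 scaffold. A RING protein on the same scaffold recruits the ubiquitin-conjugating enzyme, and the adaptor decides which protein is ubiquitylated. Kelch repeats, a MATH domain or other folds in the adaptor hold the substrate. Fly neurons use this family at synapses and in the control of sleep.

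The genes described here are 8 of the 17117 in the authors' deposited table, taken by symbol. They are the BTB-Kelch genes kel, dbo, KLHL18 and Keap1, the other BTB adaptors rdx and inc, the scaffold gene Cul3 and the RING protein gene Roc1a. The choice was made with results of this comparison known, and kel was a candidate of the study itself, so the values below are descriptions and none is offered as a test. All 8 had reads, as did 9286 genes (54.3%) of the table.

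Messenger RNA came from γ5β′2a, β′2mp and β′2mp_bilateral mushroom body output neurons, which carry signals out of the learning centre of the fly brain. They were sorted by flow cytometry from brains of mated Drosophila melanogaster females aged 3 to 4 days, dissected at ZT12 to ZT13.5 (hours after lights-on). All flies carried UAS-CD8::GFP and the split driver made of R14C08-p65.AD and R15B01-GAL4.DBD. The first genotype added UAS-bantam_sponge on both the second and the third chromosome, a transcript meant to bind and sequester the microRNA bantam, and the other added UAS-scramble_sponge in the same places, with 3 libraries described as biological replicates in each. A split driver acts wherever both of its parts are expressed, and the sources used here do not say how many brains made up a library. The comparison asks which messenger RNAs change when bantam is sequestered in these neurons.

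For each gene the authors' deposited table holds 3 values: a log2 fold change, in which bantam sponge is divided by scramble sponge, the mean log2 CPM (read count scaled to library size) of both genotypes together, and a p from an exact test, not adjusted. Single libraries were not analysed here. The mean CPM of each genotype was inferred from the deposited fold and mean, and the 95% interval of a fold from the deposited fold and p. Effective library sizes, by which counts were scaled, were recovered from the deposited values. They ran from 8.18 to 119.1 megareads in bantam sponge and from 5.31 to 98.0 megareads in scramble sponge. They include any scaling factor applied, so they need not equal the reads sequenced. By the exact test of edgeR with Benjamini-Hochberg adjustment the count of genes under an adjusted p of 0.05 was 0, and 388 genes, 4.18% of those with reads, had a deposited p under 0.05. Fewer cells of a type and less RNA per cell cannot be told apart in such libraries.

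Of the 8 genes, 1 had a deposited p under 0.05 (12.5%, against 4.18% of all genes with reads), and that gene was kel, whose value had a part in the choice. Folds were above 0 for 3 genes (kel, rdx and dbo) and below 0 for 5 (Keap1, inc, KLHL18, Cul3 and Roc1a), while 46.5% of all genes with reads had a fold above 0. Among the 98 genes with a deposited p under 0.05 and a fold above 0 (1.06% of those with reads) was kel, and the 290 with a fold below 0 (3.12%) held none of the 8. Within 1 log2 CPM of the range that the 8 genes span, 6.06% of genes had a deposited p under 0.05 and 48.1% a fold above 0. The median log2 fold change was −0.17 for the 8 genes, beside −0.13 for all genes with reads. The widest differences between genotypes were at kel and Keap1, the scarcest of the 8, and they ran in opposite directions. The adjusted p over all genes was 1 for each of the 8 (edgeR exact test, Benjamini-Hochberg).

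**Figure D1:**
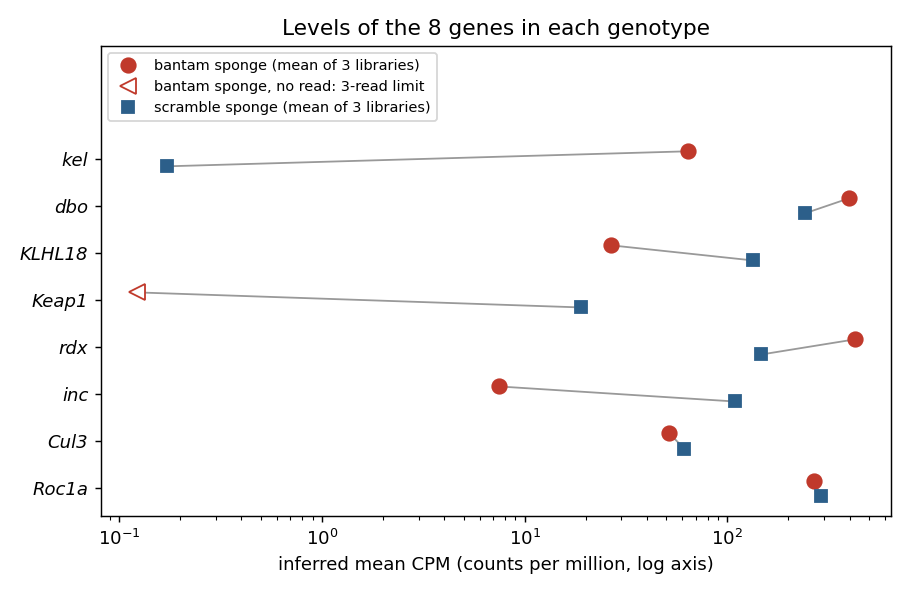
Inferred mean CPM of the 8 genes in bantam sponge (circles) and scramble sponge (squares), each a mean over 3 libraries, on a log axis; the open triangle is the limit that 3 reads in the shallowest bantam sponge library would give for Keap1. The lines join 64.0 and 0.171 CPM for kel, against nearly equal points for Cul3 and Roc1a.

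The BTB-Kelch gene kel encodes the founding Kelch protein, an actin-binding adaptor first described at the ring canals of the ovary. It averaged 64.0 CPM in bantam sponge and 0.171 CPM in scramble sponge. Depending on how reads were spread over the libraries, the scramble sponge value corresponds to 3.07 to 47.4 reads in all and to a mean of 0.161 to 0.193 CPM. In bantam sponge the same reckoning gives 1572 to 22862 reads. The groups therefore differ in whether kel was well read or barely read, and the table does not show whether 1 or all 3 bantam sponge libraries carried the reads.

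The authors' deposited table lists kel at a log2 fold change of 8.53 with p = 0.0427 by the exact test of edgeR, which implies a 95% interval of 0.39 to 16.66. It ranked 84 by p among the 4316 genes with a fold above 0. Genes of similar abundance often had small p-values as well. Within 0.5 log2 CPM of kel, 144 of 1109 genes (13.0%) had a deposited p under 0.05, and 73 (6.58%) had a log2 fold change at least as high as that of kel.

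The dispersion behind the deposited p, which measures how much the libraries of a genotype vary, was 5.12 for kel, a coefficient of variation of 226%. The median of 924 genes within 0.5 log2 CPM of kel was 6.38, and 19.8% of them had a lower dispersion than kel. With that dispersion a fold of 282 times between genotypes is needed for the interval to leave out 0, and the kel fold was 369 times. The interval of kel thus ends close to 0 on its lower side.

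The gene lies on chromosome arm 2L, 18129884 to 18138083 on the minus strand (dm6), with 6 exons of 5.48 kb in all and no exonic overlap with another annotated gene. Its 2 annotated transcripts share every exon and differ in where translation stops. The short form, of 689 residues, ends at a stop codon at 18133614 to 18133616, and the long form, of 1477 residues, reads past it to a stop at 18130774 to 18130776. Kelch is a textbook case of such stop codon readthrough in flies. The 3′ untranslated region is 3254 bases for the short form and 890 bases for the long form, and a table of counts per gene does not separate them.

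**Figure D2:**
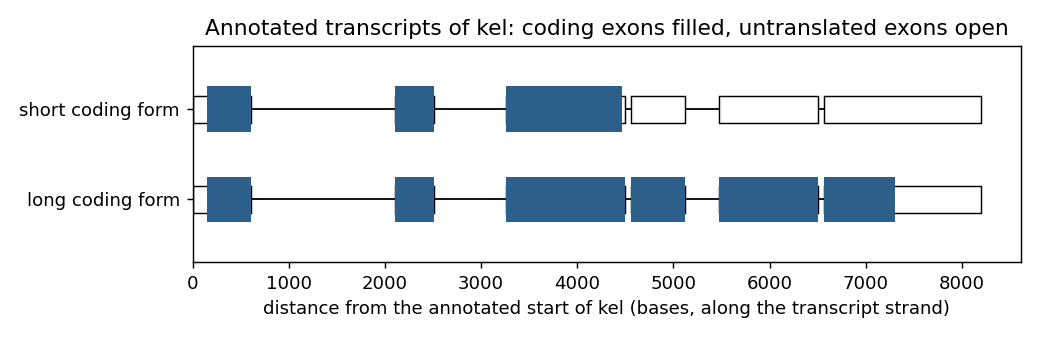
Annotated transcripts of kel, drawn to scale as distance in bases from the annotated start; filled boxes are coding and open boxes untranslated exon sequence. The short form, of 689 residues, stops in the third exon, and the long form, of 1477 residues, continues into the last exon.

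The listed markers of ovary, the tissue where kel was first described, are germline genes and were at or near 0. The ovarian genes osk, nos and vas had no read in any library, and bam was at a mean log2 CPM of −4.18 in the authors' deposited table. Markers of other outside cells had unequal levels in the genotypes, though none passed an adjusted p of 0.05 (edgeR exact test, Benjamini-Hochberg). A deposited p under 0.05 was found for PPO1, Arr2, Yp1 and Yp3, beside 4.18% of all genes with reads. The markers given by name here were chosen after their values were seen. The summed inferred CPM of 6 hemocyte markers was 870 in bantam sponge and 3804 in scramble sponge, with Hml, PPO1 and Sr-CI at no read in bantam sponge and 5 of 6 folds below 0. Pxn ran the other way and gave most of the bantam sponge sum, at 728 CPM in bantam sponge and 443 CPM in scramble sponge. Most of the scramble sponge sum was PPO1, at 1336 CPM there, and PPO2, at 142 CPM in bantam sponge and 1989 CPM in scramble sponge. Of 6 photoreceptor markers, 5 had reads and all 5 had folds below 0, with ninaE and Arr2 at no read in bantam sponge and Arr1 at no read in any library. The 4 of these at a mean log2 CPM of at least 0 summed to 99.1 CPM in bantam sponge and 249 CPM in scramble sponge. For 5 glial markers the sum was 2005 CPM in bantam sponge and 1007 CPM in scramble sponge, with 4 folds above 0, and Gs2 gave most of it, at 1270.45 CPM in bantam sponge and 541 CPM in scramble sponge. The remaining one, the glial fate gene repo, ran the other way, at 0.980 CPM in bantam sponge and 102 CPM in scramble sponge. Of 5 fat body markers 2 had folds above 0 and 3 below, with Yp1 at no read in bantam sponge, and the 4 at a mean log2 CPM of at least 0 summed to 231 CPM in bantam sponge and 175 CPM in scramble sponge. Nearly all of the bantam sponge sum was FASN1, at 231 CPM in bantam sponge and 97.4 CPM in scramble sponge. The yolk protein genes ran the other way. Yp1, unread in bantam sponge, averaged 32.8 CPM in scramble sponge. Yp2 had 0.139 CPM in bantam sponge and 14.5 CPM in scramble sponge. Yp3 averaged 30.3 CPM in scramble sponge and was barely read in bantam sponge. Its inferred mean there was below 0.122 CPM, the limit that 3 reads in the shallowest bantam sponge library would give. Pan-neuronal and glutamatergic markers summed to 4286 CPM in bantam sponge and 4470 CPM in scramble sponge, at high levels in both. The part of these other cells in the values of the 8 genes was not tested.

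The BTB-Kelch gene dbo (diablo, also called Henji), which limits growth of the neuromuscular synapse from the muscle side, was the most abundant of the adaptors per length. It averaged 398 CPM in bantam sponge and 241 CPM in scramble sponge. Its log2 fold change in the authors' deposited table was 0.72, with an implied 95% interval of −3.02 to 4.47. The genotypes were thus close in dbo, within an interval that spans many-fold changes both ways.

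KLHL18, another BTB-Kelch gene, averaged 26.7 CPM in bantam sponge and 133 CPM in scramble sponge. Its log2 fold change was −2.31 in the authors' deposited table, with an implied interval of −8.40 to 3.77. Although the means differ by 4.98 times, a difference of 68.0 times would be needed at its dispersion of 3.60.

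Keap1 encodes the adaptor that holds down the oxidative stress factor Cap-n-collar. It had no read in bantam sponge and averaged 18.9 CPM in scramble sponge. A count of 0 allows up to 3 reads, which in the shallowest bantam sponge library would be a genotype mean of 0.122 CPM. By the inferred means Keap1 was therefore at least 155-fold lower in bantam sponge. Depending on how reads were spread over the libraries, the scramble sponge mean corresponds to 302 to 5555 reads in all. Whether a single library held them all is not known. The 3-read limit covers counting error only. It leaves out the spread between libraries and any PCR copies of a molecule that were counted as separate reads. The authors' deposited table gives Keap1 a p of 0.127 by the exact test of edgeR, above 0.05 before any adjustment. Such absences were common: 617 of the 7252 genes at or above 0 in mean log2 CPM had no read in bantam sponge (8.51%).

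The roadkill gene rdx encodes a MATH and BTB domain adaptor, the fly relative of SPOP, which acts on the Hedgehog factor Cubitus interruptus and on the phosphatase Puckered. It averaged 424 CPM in bantam sponge and 147 CPM in scramble sponge. In the authors' deposited table its log2 fold change was 1.53, with an implied interval of −1.90 to 4.95. At its abundance a fold of 10.7 times would have been needed, against 2.88 times found.

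The insomniac gene inc encodes a small BTB adaptor, and flies without it sleep little. It averaged 7.47 CPM in bantam sponge and 109 CPM in scramble sponge. The log2 fold change in the authors' deposited table was −3.87, with an implied interval of −10.66 to 2.93 and a p of 0.211 by the exact test of edgeR. After kel and Keap1 this was the widest difference among the 8 genes, and its interval includes 0. Of its exonic bases, 457 (9.75%) are shared with CG14795 on the opposite strand, and these libraries do not mark strand.

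Cul3, the scaffold, averaged 51.8 CPM in bantam sponge and 61.1 CPM in scramble sponge. Its log2 fold change in the authors' deposited table was −0.24, with an implied interval of −7.35 to 6.87. The near equality of the means is less firm than it looks, because at a dispersion of 4.36 a fold of 138 times would be needed to leave 0 outside the interval.

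Roc1a, the RING partner, averaged 268 CPM in bantam sponge and 288 CPM in scramble sponge. Its log2 fold change was −0.11 in the authors' deposited table, with an implied interval of −3.53 to 3.31, the narrowest of the 8 genes. Exons of Roc1a share 115 bases (9.36%) with Hmt4-20 on the opposite strand. The exons of rdx share 68 bases with asRNA:CR43460 and 15 bases with Orc2, also on the opposite strand.

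**Figure D3:**
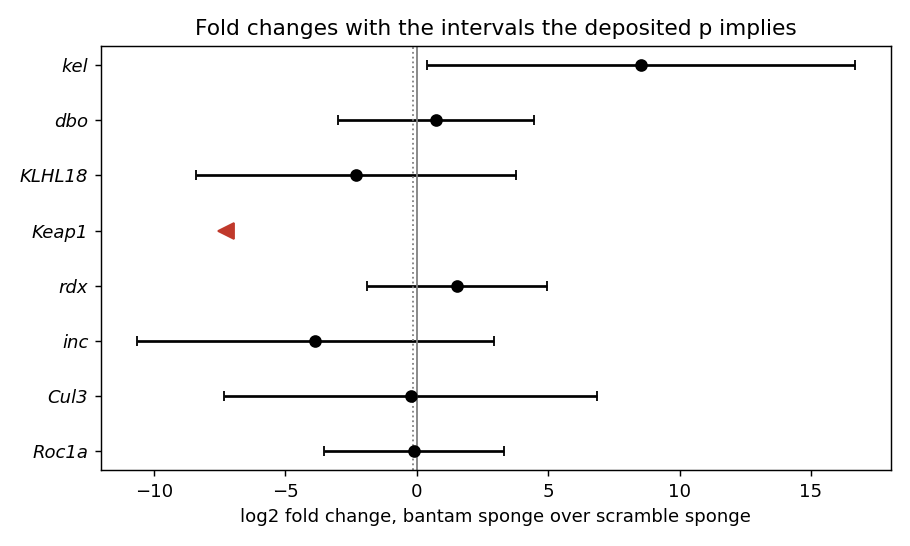
Log2 fold changes (bantam sponge over scramble sponge) of the 8 genes in the authors' deposited table with the 95% intervals that the deposited p implies, the triangle being the limit for Keap1, and the dotted line the median of all genes with reads. The interval of kel begins at 0.39 and the other 6 intervals include 0.

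Per length, the order of the levels was Roc1a, dbo, rdx, KLHL18, inc, Cul3, kel and Keap1. Mean log2 CPM per kb of exon was 7.82 for Roc1a, 6.45 for dbo and 5.45 for rdx. It was 4.91 for KLHL18, 3.64 for inc, 3.39 for Cul3, 2.55 for kel and 1.46 for Keap1. The gaps between neighbours ran from 0.25 (inc over Cul3) to 1.37 (Roc1a over dbo). The spread of a level over libraries was not analysed here, so whether neighbours in this order differ beyond it was not tested. In log2 CPM without scaling for length, 6 of the 8 genes lay above the median of genes with reads.

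Most of the 8 genes have long transcripts. Their combined exons ran from 1.23 kb (Roc1a) to 6.51 kb (rdx), against a median of 2.06 kb for 9220 genes with reads and an annotation, and Roc1a alone was below that median. The longest annotated 3′ untranslated region was above the median of 321 bases for all 8, from 396 bases in Keap1 to 2225 bases in inc and 3254 bases in the short form of kel. The genes are spread over 4 chromosome arms. Besides kel, Cul3 lies on 2L (15265245 to 15272024, minus strand) and dbo on 3L (15826888 to 15832004, plus strand). On 3R are KLHL18 (12007476 to 12010434), Keap1 (17073942 to 17079945) and rdx (13967061 to 14032057), all on the minus strand. The X chromosome holds Roc1a (647304 to 648597) and inc (1483479 to 1517615), both on the plus strand.

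**Figure D4:**
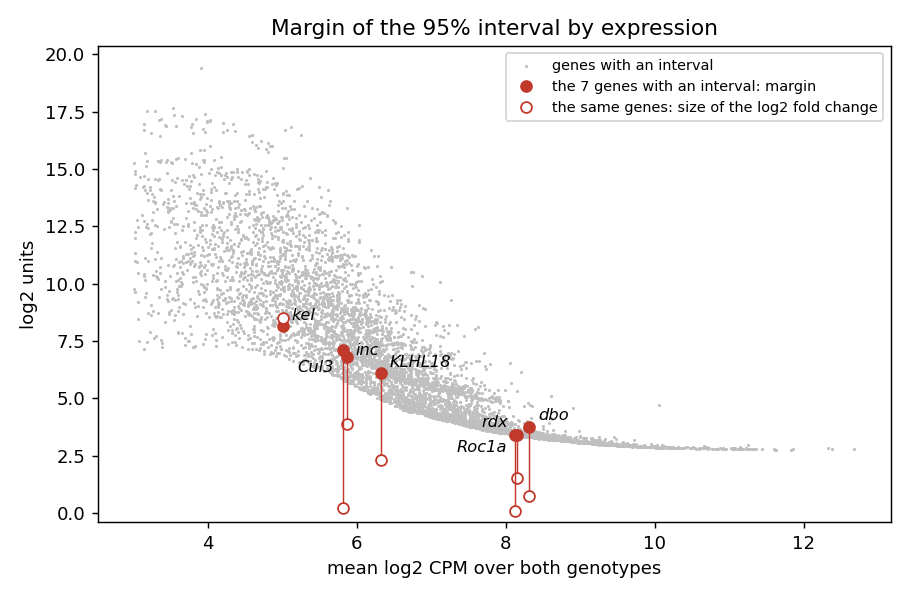
Margin of the 95% interval (the distance from the fold to either end, log2 units) against mean log2 CPM, for 5520 genes (grey) and the 7 of the 8 genes with an interval (filled), with the size of each log2 fold change below it (open). The fold of kel, 8.53, lies just above its margin of 8.14, and the other 6 folds lie below theirs.

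Precision followed abundance. Margins were 3.42 for Roc1a, 3.42 for rdx and 3.74 for dbo, the 3 most abundant genes. They were 6.09 for KLHL18, 6.79 for inc, 7.11 for Cul3 and 8.14 for kel, beside a median of 6.26 over the 5520 genes with an interval. A dispersion below the median of genes of like abundance was found for 6 of the 7 genes, dbo being the exception at 1.85 against 1.64.

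Around the ligases, 9 lists of 65 genes were chosen by role, of which 60 had reads, 31 with folds above 0 and 29 below. The lists also hold actin, stress response and short-sleep genes that are not parts of a ligase, so these counts are not those of the ligase pathway alone. They include genes at a mean log2 CPM below 0, too scarce for a firm fold. In this set 1 gene had a deposited p under 0.05 (1.67%, against 4.18% of all genes with reads), and none passed the adjusted threshold. That gene was alien, which encodes subunit 2 of the COP9 signalosome, the complex that removes Nedd8 from cullins. It averaged 4.53 CPM in bantam sponge and 187 CPM in scramble sponge. The log2 fold change was −5.37 in the authors' deposited table, with p = 0.0498 by the exact test of edgeR, and the implied interval ends just below 0.

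Folds were above 0 for 5 of the other 7 signalosome genes, each with a deposited p of 0.05 or more. CSN7, the most abundant, averaged 229 CPM in bantam sponge and 104 CPM in scramble sponge, with an interval of −2.76 to 5.04. CSN4 averaged 270 CPM in bantam sponge and 9.70 CPM in scramble sponge, with an interval of −1.77 to 11.36. CSN6 averaged 85.0 CPM in bantam sponge and 152 CPM in scramble sponge. The median log2 fold change over all 8 signalosome genes was 1.60, beside −0.13 for all genes with reads.

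The list of Nedd8 attachment, which also holds Nedd8 itself and Cand1, was divided, 4 genes above and 4 below 0. Its median log2 fold change was −0.10. SCCRO, a cofactor of Nedd8 attachment, was the most abundant, at 130 CPM in bantam sponge and 235 CPM in scramble sponge. SCCRO4 averaged 172 CPM in bantam sponge and 135 CPM in scramble sponge. Of the other cullins, their RING partners and SkpA, 3 genes were above 0 and 3 below, and Roc1b had no read. SkpA, the adaptor of Cullin-1 ligases, averaged 471 CPM in bantam sponge and 532 CPM in scramble sponge. Cul2 averaged 349 CPM in bantam sponge and 160 CPM in scramble sponge, and Cul1 averaged 187 CPM in bantam sponge and 39.9 CPM in scramble sponge. None of the other cullin genes had a deposited p under 0.05, and nor did Cul3.

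Other BTB genes gave 7 folds above and 5 below 0, counting 5 BTB-Kelch genes and 7 without Kelch repeats, and klhl10 had no read. The BTB-Kelch gene CG15097 averaged 101 CPM in bantam sponge and 144 CPM in scramble sponge. In slim the means were 172 CPM in bantam sponge and 46.6 CPM in scramble sponge, and in CG1812 90.0 CPM in bantam sponge and 107 CPM in scramble sponge. Ktl, the most abundant of the BTB genes without Kelch repeats, averaged 873 CPM in bantam sponge and 549 CPM in scramble sponge, gprs 218 CPM in bantam sponge and 253 CPM in scramble sponge, and CG10465 224 CPM in bantam sponge and 232 CPM in scramble sponge. The median log2 fold changes of both lists were near 0, at 0.17 for BTB-Kelch genes and 0.22 for the rest.

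**Figure D5:**
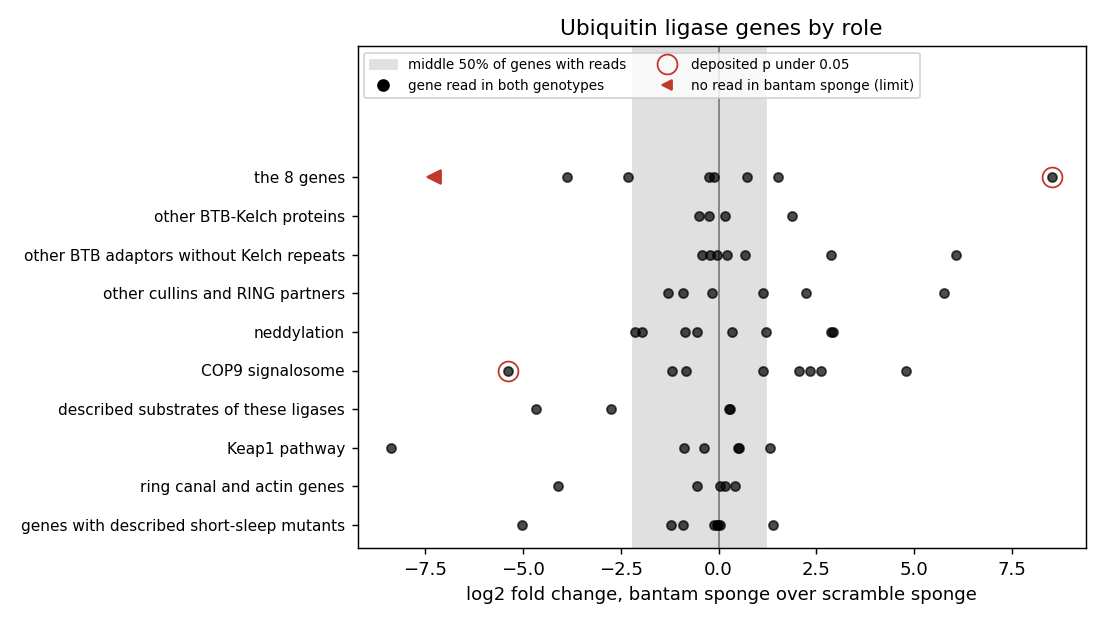
Log2 fold changes (bantam sponge over scramble sponge) of the 8 genes and of the 9 lists, for genes at or above 0 in mean log2 CPM. The middle 50% of all genes with reads is shaded. Rings mark a deposited p under 0.05 and the triangle the limit for Keap1. Rings fall on kel at 8.53 and on the signalosome gene alien at −5.37.

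The list of described substrates of these ligases showed no common direction. The adducin gene hts, whose ring canal product is a substrate of the Kelch ligase, averaged 415 CPM in bantam sponge and 341 CPM in scramble sponge, and its log2 fold change in the authors' deposited table was 0.28. The kinase gene Pak, linked to dbo at the muscle synapse, averaged 24.0 CPM in bantam sponge and 161 CPM in scramble sponge, with an interval of −7.62 to 2.12. The clock gene tim averaged 0.938 CPM in bantam sponge and 23.6 CPM in scramble sponge, with an interval of −14.55 to 5.25. For cnc, which encodes the Keap1 substrate, the means were 15.7 CPM in bantam sponge and 13.0 CPM in scramble sponge. The rdx substrate genes ci and puc and the cyclin gene CycE were scarce, at a mean log2 CPM of −4.33, −3.89 and −4.27 in the authors' deposited table, too low for a fold.

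Genes acting with or after Cap-n-collar divided 3 above and 3 below 0, beside a Keap1 with no read in bantam sponge. The autophagy receptor gene ref(2)P averaged 416 CPM in bantam sponge and 770 CPM in scramble sponge, and the thioredoxin reductase gene Trxr-1 averaged 675 CPM in bantam sponge and 473 CPM in scramble sponge. The glutathione transferase and synthesis genes of the list were spread widely. The cofactor gene maf-S averaged 94.7 CPM in bantam sponge and 122 CPM in scramble sponge. The list's median log2 fold change was 0.07.

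Of the ring canal and actin genes other than kel, the most abundant had like levels in both genotypes. Act5C averaged 3701 CPM in bantam sponge and 3614 CPM in scramble sponge, Act42A 326 CPM in bantam sponge and 291 CPM in scramble sponge, and Src64B 167 CPM in bantam sponge and 125 CPM in scramble sponge. The ring canal genes cher and qua had no read in any library. Of the list, 3 genes had folds above 0 and 2 below. The 2 below 0 were the scarcer sn and Btk29A, named after their values were seen. The means of sn were 2.87 CPM in bantam sponge and 49.4 CPM in scramble sponge, with an interval of −14.73 to 6.52. For Btk29A they were 16.2 CPM in bantam sponge and 23.7 CPM in scramble sponge.

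Genes with short-sleep mutants, set beside inc, had 2 folds above 0 and 6 below, with a median log2 fold change of −0.08. The Shaker regulator gene qvr (sleepless) averaged 782 CPM in bantam sponge and 795 CPM in scramble sponge. The potassium channel gene Sh averaged 656 CPM in bantam sponge and 677 CPM in scramble sponge, and its β subunit gene Hk 412 CPM in bantam sponge and 443 CPM in scramble sponge. These abundant sleep genes were close to equal in the genotypes, with margins of several log2 units, whereas inc was 14.6 times lower in bantam sponge by its means, with an interval that includes 0. DAT, the dopamine transporter gene of the same list, named after its values were seen, was further from equal than inc, at 0.0606 CPM in bantam sponge and 2.04 CPM in scramble sponge, and its log2 fold change in the authors' deposited table was −5.02, with p = 0.160 by the exact test of edgeR.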

How the data were processed

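The members and gene lists were chosen with earlier results of these data known. Per the series design, poly(A) RNA was copied by a SMART-seq2 variant with 25 rounds of PCR, tagmented with Nextera XT, and sequenced as paired 75-base reads for 2 replicates and paired 150-base reads for 1. The sources used here do not say which replicate is which, so the platform could not be a term. The submitters' processing notes name STAR, Picard, HTSeq, edgeR and dm6, with no version. The log2 fold changes and mean log2 CPM are the authors' deposited values from edgeR, per the file headers, and so are the p-values, which carry no adjustment. Each p sets the difference between genotypes against the spread between libraries called biological replicates.

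Library sizes and a common dispersion of 4.50 were solved from 688 genes with 1 read in 1 library, taking prior counts of 2 (mean) and 0.125 (fold). Of 424 other low genes 373 (88.0%) fell within 1e-05 of a value predicted for 2 to 5 reads, and 0% did when shifted. Above a mean log2 CPM of 0, a gene had no read in a genotype where the absolute fold exceeded the mean by over 9.3; no gene lay between 8.34 and 9.66. The fitted fold of such a gene reflects the prior count, so a limit from 3 reads is given instead. Genotype means average 3 library CPMs. The deposited fold and p give the dispersion of a beta approximation to the exact test and a 95% interval, for genes read in both genotypes with a mean of at least 3, an absolute fold of at least 0.02, and one exceeding the mean by less than 5. Recovery of the genotype means and coverage of the intervals were tested on simulated counts. Library sizes and the common dispersion were supplied there, and each p came from the same beta approximation. The exact test itself and the recovery of library sizes were thus not tested by simulation. Gene models are from Ensembl release 115, where 16959 rows matched, 3695 by an older name; CSN2 and sss were found as alien and qvr. Named in each list were genes with p under 0.05, the 3 most abundant, and all substrates; 1 gene that this rule names is not reported here.

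Python 3.11.15, NumPy 2.4.6, SciPy 1.17.1 and pandas 2.3.3 were used. A planned search for bantam seed matches was not run, because no genome sequence was used here.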

Additional observations from a re-analysis of the deposited data

How the results depend on the processing

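No gene was called under any adjustment run (Benjamini-Hochberg over genes with reads, over those at or above 0 or 3 in mean log2 CPM, and Holm over all rows), beside 388 at an unadjusted p under 0.05. The count of the 8 genes with a fold above 0 stayed within 1.5 times of 3 under the 4 alternatives run. The interval of kel was 1.22 to 15.83 with the common dispersion in place of its own. Of the described substrates 4 had a fold above 0, among them puc and CycE, which were too low for a firm fold. At or above 3 in mean log2 CPM the count was 2, with fewer genes counted. It was also 2 among genes read in both genotypes, an alternative chosen after seeing the data. Of the short-sleep genes 2 were above 0 and 5 were above the median of all genes with reads. In the order of levels 6 of 8 places held per kb of the longest transcript, where Cul3 and inc changed places. No paired analysis was possible because values per library were not analysed here; leaving out each replicate was not run for the same reason, nor was the seed search. The scramble sponge mean of kel rests on 3.07 to 47.4 reads, and Keap1 had no read in bantam sponge.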
